A study of Mus musculus with 6 samples.

Results

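The transcripts described here are those of the transcription factor NRF2, of its inhibitor KEAP1 and of 8 core NRF2 targets. The 10 genes, Nfe2l2, Keap1, Nqo1, Gclc, Gclm, Hmox1, Txnrd1, Srxn1, Slc7a11 and Osgin1, were taken by symbol from a table of 32061 Ensembl genes, and all 10 were found. The table gives RNA-seq read counts for hepatocytes, the main metabolic cells of the liver, in 3 senescent and 3 healthy samples. Senescent samples came from AhCre+Mdm2fl/fl mice, which carry the AhCre transgene and floxed alleles of Mdm2, the gene of the ubiquitin ligase that keeps p53 low. Healthy samples came from AhCre- mice, whose Mdm2 genotype is not stated in the sources used here, so that the transgene and the loss of Mdm2 cannot be told apart. Mice of both groups, 10 to 12 weeks old at isolation, had received β-naphthoflavone at 20 mg/kg to induce Cre. The time given after induction is 48 h. In AhCre the promoter is one that the aryl hydrocarbon receptor (AhR) switches on when bound by a ligand, and β-naphthoflavone is such a ligand. It is also a classical inducer of Nqo1, so that both groups received that stimulus. Nothing says whether the samples are separate animals, and p-values therefore measure the spread between these samples.

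NRF2, encoded by Nfe2l2, is a basic leucine zipper factor that is made and degraded continuously. KEAP1 holds it on a cullin 3 ubiquitin ligase, and oxidants or electrophiles that modify cysteines of KEAP1 stop this degradation. NRF2 then enters the nucleus, pairs with a small MAF protein and binds antioxidant response elements near genes of glutathione synthesis, thioredoxin reduction, quinone reduction and haem breakdown. Control is thus largely at the level of the protein, which RNA counts do not measure. In liver the pathway is known for protection against reactive drug metabolites, and p21, the product of the p53 target Cdkn1a, is known to bind NRF2 and to hinder its degradation.

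The promoters of Srxn1, Nfe2l2, Gclm and Osgin1 are printed because these genes had the largest rise, the rise of the factor itself, the single fall and the widest spread among libraries. They are RefSeq sequences on GRCm38.p6, each running from 250 bases before the annotated start of transcription to 50 bases after it, 5′ to 3′ on the strand of the gene. For Osgin1 that RefSeq start lies inside the GENCODE M21 span of the gene, which begins further 5′ at base 119434124. Capitals mark matches, on either strand, to TGACNNNGC or TGAGNNNGC, the letters of the core antioxidant response element, or to TGACTCA, the AP-1 motif; the motifs can overlap.
Srxn1, chr2:152105274-152105573, plus strand: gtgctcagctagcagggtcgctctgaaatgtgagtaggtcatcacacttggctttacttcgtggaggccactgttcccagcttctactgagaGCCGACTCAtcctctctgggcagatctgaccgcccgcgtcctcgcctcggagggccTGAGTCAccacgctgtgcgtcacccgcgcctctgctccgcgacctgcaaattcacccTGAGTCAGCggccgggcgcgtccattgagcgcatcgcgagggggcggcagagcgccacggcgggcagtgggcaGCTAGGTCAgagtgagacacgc
Nfe2l2, chr2:75704614-75704913, minus strand: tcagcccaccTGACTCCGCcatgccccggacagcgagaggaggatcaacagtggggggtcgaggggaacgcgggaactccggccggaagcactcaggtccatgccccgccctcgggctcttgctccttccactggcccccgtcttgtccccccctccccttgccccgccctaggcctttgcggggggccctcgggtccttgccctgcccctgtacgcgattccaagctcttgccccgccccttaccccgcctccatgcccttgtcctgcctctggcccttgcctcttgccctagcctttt
Gclm, chr3:122245307-122245606, plus strand: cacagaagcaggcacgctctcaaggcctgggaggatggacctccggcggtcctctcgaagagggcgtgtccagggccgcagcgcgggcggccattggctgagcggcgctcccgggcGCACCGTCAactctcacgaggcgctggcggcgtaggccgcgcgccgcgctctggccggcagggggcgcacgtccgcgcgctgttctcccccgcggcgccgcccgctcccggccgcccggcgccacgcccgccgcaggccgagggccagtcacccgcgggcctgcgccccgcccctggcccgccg
Osgin1, chr8:119436897-119437196, plus strand: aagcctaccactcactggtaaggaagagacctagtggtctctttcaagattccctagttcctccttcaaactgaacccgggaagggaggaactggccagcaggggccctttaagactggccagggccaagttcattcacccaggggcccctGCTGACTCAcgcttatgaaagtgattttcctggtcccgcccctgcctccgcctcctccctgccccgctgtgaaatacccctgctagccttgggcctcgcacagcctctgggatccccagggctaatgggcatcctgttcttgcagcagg
The Srxn1 window holds TGAGTCAGC, which matches TGAGNNNGC and TGACTCA together, with its first base 45 bases before the start. A further TGAGTCA lies 102 bases before the start, GCCGACTCA 158 bases before it and GCTAGGTCA 28 bases after it. The Nfe2l2 window holds TGACTCCGC 240 bases before the start, and the Gclm window holds GCACCGTCA 134 bases before it. In the Osgin1 window, GCTGACTCA overlaps TGACTCA, the outer match beginning 99 bases before the start.

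RefSeq windows were found for 8 of the 10 genes, as 10 windows, since Txnrd1 has 3 annotated starts; Gclc and Hmox1 have none in the table. TGACNNNGC occurred in 4 of the 10 windows and in 12.4% of all 32851 windows of that length. TGAGNNNGC occurred in 3 of the 10 and in 17.6% of all, and TGACTCA in 2 of the 10 and in 5.20% of all. At least 1 of these motifs was present in 6 of the 10 windows, against 31.1% of all. The second Txnrd1 window has GCTTTGTCA 92 bases before its start and the Slc7a11 window GCTTTCTCA 97 bases before its start. None of the 3 motifs is in the Keap1 or Nqo1 window. Such matches describe letters in a window and not binding.

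Senescent libraries held 29992707 to 32210591 counts in all, and healthy libraries 28799392 to 33267299. Levels are given as CPM, counts scaled to a common library size by TMM, and log2 fold changes are senescent over healthy. Mdm2 averaged 476 ± 21.7 CPM in senescent and 21.2 ± 1.95 CPM in healthy libraries (SD, n = 3 each), and since its count spans the whole gene it does not check the deletion. Cdkn1a averaged 717 ± 60.04 CPM in senescent and 35.6 ± 17.0 CPM in healthy libraries. Hepatocyte markers were abundant in every library. Their summed level was 88347 to 102797 CPM in senescent and 146267 to 163981 CPM in healthy libraries. Of 11 such markers 7 fell, as did 20.7% of all tested genes. Alb, the albumin gene, took 5.51% to 5.96% of all reads counted in senescent libraries, and 7.26% to 8.87% in healthy libraries. Macrophage markers summed to 242 to 488 CPM in senescent and 98.2 to 267 CPM in healthy libraries, with Clec4f the most abundant. Stellate cell markers, led by Dcn, summed to 24.6 to 37.5 CPM in senescent and 9.47 to 15.8 CPM in healthy libraries, with Acta2 at 0.0558 CPM at most. Of 9 tested stellate markers 4 rose and 0 fell (median log2 fold change 1.36), against 20.4% and 20.7% of all tested genes. Sinusoidal endothelial markers, led by Vwf, summed to 142 to 190 CPM in senescent and 128 to 181 CPM in healthy libraries. Of 10 tested endothelial markers 2 rose and 0 fell (median log2 fold change 0.12), against the same shares. Lymphocyte and neutrophil markers, led by S100a9, summed to 2.83 to 3.30 CPM in senescent and 0.601 to 2.02 CPM in healthy libraries. In bulk RNA, fewer cells of a type and less RNA per cell cannot be told apart.

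Of the 10 genes, 9 had enough counts to be tested. In senescent hepatocytes Nfe2l2, Nqo1, Gclc, Hmox1, Txnrd1 and Srxn1 rose, between 1.77-fold and 6.26-fold, and Gclm fell to 0.722-fold. Keap1 and Osgin1 did not pass, and Slc7a11 was barely counted. The 6 rises and 1 fall come from edgeR's quasi-likelihood F test with Benjamini-Hochberg adjustment over 12949 genes, called under 0.05. On that rule 41.1% of all tested genes were called, 20.4% as higher and 20.7% as lower. The median log2 fold change of the 9 genes was 1.12, against 0.01 for all tested genes. The values of the groups did not overlap for 7 of the 9 genes, and for 54.0% of all tested genes. All 6 rises were called in each alternative fit, including the scaling to total library size, which moved the median of all genes to 0.33. The fall of Gclm was not.

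**Figure D1:**
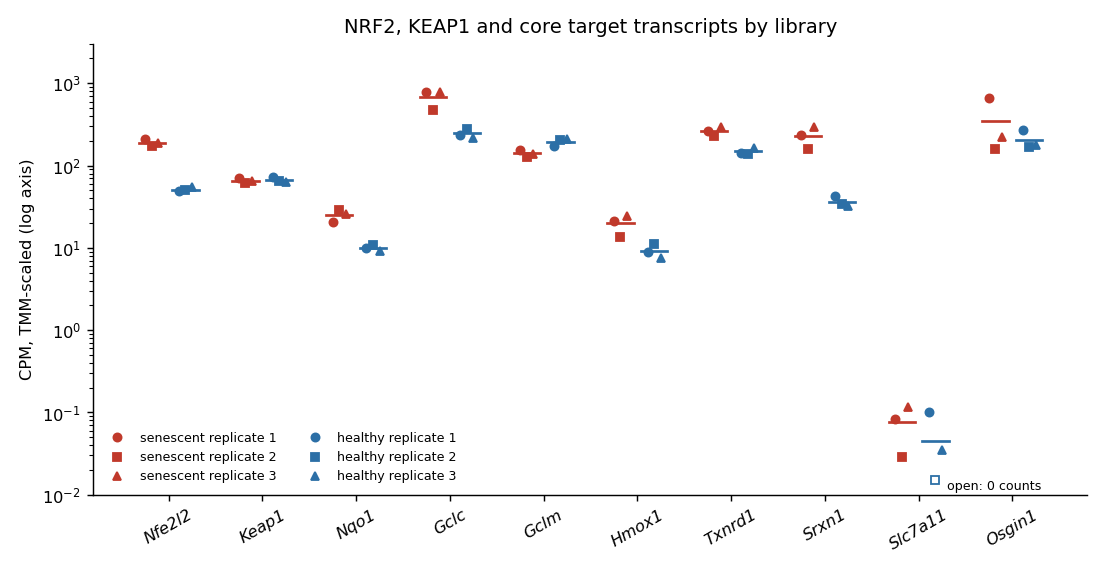
CPM of the 10 genes in each library on a log axis, with senescent libraries in red to the left of healthy ones in blue; bars are group means and an open symbol marks 0 counts. Nfe2l2 sits at 172 to 213 CPM in senescent and 48.5 to 54.1 CPM in healthy libraries, while Keap1 overlaps and Slc7a11 lies at or under 0.116 CPM.

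Nfe2l2 (ENSMUSG00000015839; GRCm38 chromosome 2, 75675513 to 75704641, minus strand), the gene of NRF2 itself, had 213, 172 and 186 CPM across senescent replicates 1, 2 and 3, compared with 48.5, 50.8 and 54.1 CPM in healthy replicates 1, 2 and 3. Each senescent library was far above every healthy one. Its log2 fold change was 1.90 ± 0.12 (SE; edgeR adjusted p = 1.7e-05), at percentile 95.3 of the changes of all tested genes. By abundance the transcript was number 614 of all genes in senescent and number 2482 in healthy libraries.

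Keap1 (ENSMUSG00000003308; chromosome 9, 21229730 to 21239361, minus strand), the substrate adaptor that hands NRF2 to the ligase, had 70.2, 60.5 and 64.7 CPM in senescent and 73.2, 65.1 and 62.6 CPM in healthy replicates. The groups overlap almost entirely. Its log2 fold change was -0.04, with a 95% interval of -0.30 to 0.22 (edgeR adjusted p = 0.80), and was 0.27 with total library size (edgeR adjusted p = 0.096). The ratio of Nfe2l2 to Keap1 counts within a library, which no scaling can move, was 3.03, 2.84 and 2.88 in senescent and 0.663, 0.780 and 0.864 in healthy replicates. Each senescent ratio exceeded each healthy one, and the mean log2 difference was 1.93 (two-sided exact permutation p = 0.1, the smallest that 3 against 3 libraries allow). In GENCODE M21 an antisense gene, Gm16754, shares 510 exonic bases with Keap1 on the opposite strand. It is not among the genes counted.

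The glutathione branch split. Gclc (ENSMUSG00000032350; chromosome 9, 77754535 to 77794485, plus strand) encodes the catalytic subunit of glutamate-cysteine ligase, the rate-limiting enzyme of glutathione synthesis. It had 782, 475 and 790 CPM in senescent replicates and 235, 282 and 219 CPM in healthy replicates. Senescent replicate 2 was the lowest of its group and still above every healthy library. The log2 fold change was 1.48 ± 0.22 (edgeR adjusted p = 0.0011). Gclm (ENSMUSG00000028124; chromosome 3, 122245557 to 122270732, plus strand) encodes the modifier subunit, which raises the affinity of the catalytic subunit for glutamate and eases its feedback inhibition by glutathione. It had 156, 128 and 139 CPM across senescent replicates, compared with 172, 206 and 208 CPM in healthy replicates. The groups did not overlap, but senescent replicate 1 and healthy replicate 1 were close. Its log2 fold change was -0.47 ± 0.13 (edgeR adjusted p = 0.021). That call was lost without senescent replicate 2 (adjusted p = 0.13), senescent replicate 3 (0.11) or healthy replicate 2 (0.067), and with total library size (log2 fold change -0.16, edgeR adjusted p = 0.38). In GENCODE M21 a processed pseudogene, Gm6061, shares 244 exonic bases with Gclm on the same strand, and Gm17494 shares 296 on the opposite strand. Neither is among the 32061 genes counted.

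Because Gclc and Gclm encode the 2 parts of a single enzyme, their counts were also compared within each library. The Gclc to Gclm count ratio was 5.01, 3.72 and 5.66 in senescent replicates and 1.37, 1.37 and 1.05 in healthy replicates. It averaged 4.80 ± 0.987 in senescent and 1.26 ± 0.183 in healthy libraries (SD, n = 3 each), without overlap. The mean log2 difference was 1.92 (two-sided exact permutation p = 0.1, again the smallest possible).

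**Figure D2:**
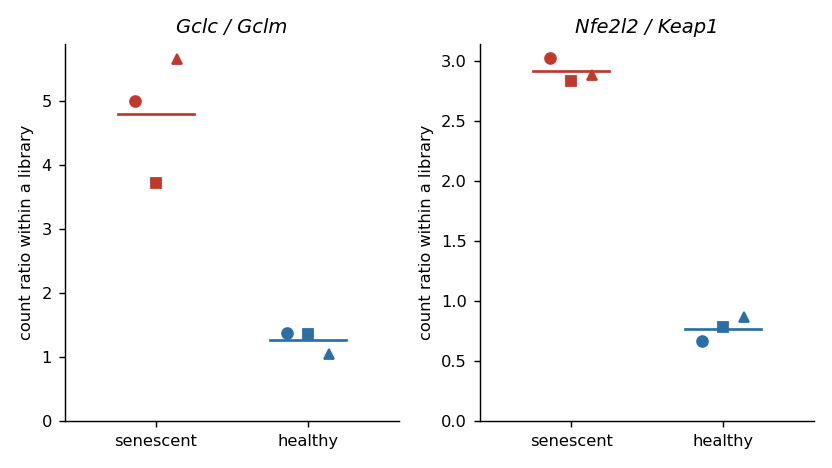
Ratio of Gclc to Gclm counts (left) and of Nfe2l2 to Keap1 counts (right) within each library, with senescent libraries in red and healthy ones in blue; circles, squares and triangles are replicates 1, 2 and 3 and bars are means. Senescent ratios were 3.72 to 5.66 and 2.84 to 3.03, healthy ratios 1.05 to 1.37 and 0.663 to 0.864.

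Both thioredoxin system genes rose. Srxn1 (ENSMUSG00000032802; chromosome 2, 152105516 to 152111376, plus strand) encodes sulfiredoxin, which restores peroxiredoxins that peroxide has over-oxidised. It had 232, 158 and 297 CPM across senescent replicates, compared with 42.8, 34.3 and 32.6 CPM in healthy replicates. Senescent libraries spread widely among themselves but lay far above the healthy ones. The log2 fold change of 2.65 ± 0.24 was the largest of the 9 (edgeR adjusted p = 8.9e-05; percentile 97.3). Txnrd1 (ENSMUSG00000020250; chromosome 10, 82833951 to 82897712, plus strand), the gene of cytosolic thioredoxin reductase, a selenoprotein that feeds NADPH electrons to thioredoxin, had 262, 231 and 293 CPM in senescent and 144, 139 and 162 CPM in healthy replicates. The groups were separate, with a log2 fold change of 0.82 ± 0.13 (edgeR adjusted p = 0.0019).

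Nqo1 (ENSMUSG00000003849; chromosome 8, 107388225 to 107403206, minus strand) encodes a quinone reductase that turns quinones into hydroquinones in a single step. It was low, with 20.4, 28.5 and 25.8 CPM in senescent replicates and 9.87, 10.9 and 9.26 CPM in healthy replicates. The groups were separate, and the log2 fold change was 1.31 ± 0.15 (edgeR adjusted p = 0.00036). Nqo1 is also a gene of the AhR battery. Among the 7 tested genes of that battery 3 were higher, 1 was lower and 3 were not called (median log2 fold change 0.44). Shares among all tested genes were 20.4% higher and 20.7% lower. The risen genes of the battery were Nqo1, Arnt, which encodes the partner of AhR, and Ugt1a6a, a glucuronosyltransferase gene. Log2 fold changes were 0.44 and 0.54 for the last pair. Tiparp, a poly(ADP-ribose) polymerase gene that AhR induces, fell by 0.81 on the log2 scale. Arnt and Ugt1a6a lost their calls when senescent replicate 2, senescent replicate 3, healthy replicate 1 or healthy replicate 2 was omitted (edgeR adjusted p 0.059 to 0.12). Tiparp lost its call when senescent replicate 1, senescent replicate 3 or healthy replicate 2 was omitted (0.060 to 0.088) and with total library size (0.089).

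Cyp1a2, the most abundant AhR target of the list, had 607, 1613 and 688 CPM in senescent replicates and 842, 1892 and 984 CPM in healthy replicates (log2 fold change -0.35, edgeR adjusted p = 0.53). In each group the library with the highest Cyp1a2, replicate 2, also had the highest Nqo1. The full order of libraries was the same for both genes in the senescent group but not in the healthy one. Cyp1a1, another AhR target of the list, was low, at 2.12 to 4.95 CPM in senescent and 2.86 to 10.3 CPM in healthy libraries. Its log2 fold change was -0.90 (edgeR adjusted p = 0.19). The full order of libraries was the same for Cyp1a1 and Nqo1 in both groups. The part of AhR activity in the Nqo1 result was not tested.

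Hmox1 (ENSMUSG00000005413; chromosome 8, 75093621 to 75100589, plus strand) encodes haem oxygenase 1, which opens haem to biliverdin, carbon monoxide and iron and is abundant in liver macrophages. It had 21.1, 13.7 and 24.6 CPM across senescent replicates, compared with 8.96, 11.01 and 7.46 CPM in healthy replicates. The groups were separate by a narrow gap between senescent replicate 2 and healthy replicate 2. The log2 fold change was 1.12 ± 0.23 (edgeR adjusted p = 0.0063). The summed CPM of 12 macrophage markers was 377, 242 and 488 in senescent replicates and 224, 267 and 98.2 in healthy replicates. Within each group the order of the libraries was the same for Hmox1, for Gclc and for this sum. Srxn1, Txnrd1 and Slc7a11 shared the order of the sum in the senescent group but not in the healthy one. Nqo1 shared it in the healthy group but not in the senescent one. Of the 12 markers, 2 rose, 0 fell and 10 did not pass (median log2 fold change 0.90). By the same rule 20.4% of all tested genes rose and 20.7% fell. With total library size 10 of the markers rose, but 4861 of all tested genes also did, compared with 2644 with TMM. Without senescent replicate 3 the number of risen markers was 0, and without senescent replicate 2 it was 6. In these fits 1836 and 2419 of all tested genes rose. As a percent of the marker sum, Hmox1 was 5.58, 5.67 and 5.04 in senescent and 4.004, 4.13 and 7.60 in healthy replicates. On this measure the groups overlapped only through healthy replicate 3, whose marker sum of 98.2 CPM was the lowest. No other gene was set against the sum, so these values do not show whether the overlap is particular to Hmox1. The part of macrophage RNA in the results for Hmox1, Gclc and the other risen genes was not tested.

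**Figure D3:**
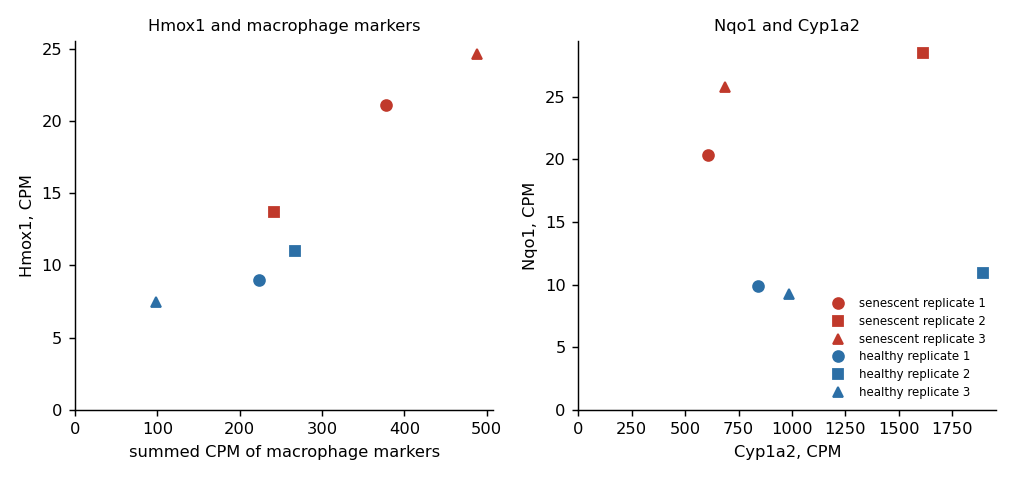
Left, Hmox1 against the summed CPM of 12 macrophage markers; right, Nqo1 against Cyp1a2, each point a library, senescent in red and healthy in blue. Hmox1, at 13.7 to 24.6 CPM in senescent and 7.46 to 11.01 CPM in healthy libraries, has the order of the marker sum within each group, as Gclc also does; Nqo1 is at 20.4 to 28.5 CPM in senescent and 9.26 to 10.9 CPM in healthy libraries, highest within each group where Cyp1a2 is highest.

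Osgin1 (ENSMUSG00000074063; chromosome 8, 119434124 to 119446256, plus strand), which encodes an oxidative stress-induced growth inhibitor, had the least even values. It stood at 669, 157 and 225 CPM across senescent replicates, compared with 272, 166 and 178 CPM in healthy replicates. Senescent replicate 1 was far above the rest, and the other senescent libraries lay within or just below the healthy range. The log2 fold change was 0.77 with a 95% interval of -0.34 to 1.88 (edgeR adjusted p = 0.23), and it was -0.07 without senescent replicate 1 (adjusted p = 0.84). Replicate 1 was the highest library for Osgin1 in the healthy group too. Slc7a11 (ENSMUSG00000027737; chromosome 3, 49892526 to 50443614, minus strand), the light chain of the cystine importer that supplies cysteine to glutathione synthesis, had 3, 1 and 4 counts in senescent and 3, 0 and 1 counts in healthy replicates. The count of 0 in healthy replicate 2 allows up to 3 counts, or 0.117 CPM, counting error only, and no fold is given. A difference in Slc7a11 was not detectable at this depth.

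Among the senescent libraries, replicate 2 was the lowest for 8 of the 9 tested genes, an order noticed after the values were seen; the exception was Nqo1, for which it was the highest. Replicate 1 was the highest senescent library for 4 genes and replicate 3 for 4. The share of all tested genes with replicate 2 lowest is not given here, so the order cannot be called particular to these genes. Replicate 2 also had the lowest macrophage marker sum and the highest Cyp1a2 of its group; their part in this order was not tested.

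Levels were compared between genes as CPM per kilobase of exonic sequence, taken over all annotated isoforms. In senescent libraries the order of these levels was Gclc (181 ± 47.7), Osgin1 (131 ± 104), Srxn1 (81.3 ± 24.7), Nfe2l2 (50.1 ± 5.45), Txnrd1 (36.9 ± 4.37), Gclm (22.4 ± 2.29), Nqo1 (16.0 ± 2.65), Keap1 (13.9 ± 1.04) and Hmox1 (11.3 ± 3.18 CPM per kilobase; SD, n = 3 each). Library ranges overlapped between Gclc and Osgin1, Osgin1 and Srxn1, Srxn1 and Nfe2l2, Nqo1 and Keap1, and Keap1 and Hmox1. In healthy libraries the order was Osgin1 (76.8 ± 21.7), Gclc (65.1 ± 8.65), Gclm (31.0 ± 3.25), Txnrd1 (20.9 ± 1.74), Keap1 (14.3 ± 1.18), Nfe2l2 (13.5 ± 0.749), Srxn1 (13.0 ± 1.94), Nqo1 (6.45 ± 0.545) and Hmox1 (5.22 ± 1.02 CPM per kilobase; SD, n = 3 each). There the ranges overlapped between Osgin1 and Gclc, Keap1 and Nfe2l2, Nfe2l2 and Srxn1, and Nqo1 and Hmox1. Slc7a11 was last in both groups. By this measure Gclm was the sixth of the 10 in senescent libraries and the third in healthy ones, whereas Nfe2l2 and Srxn1 were above Keap1 in senescent libraries and overlapped with their neighbours in healthy ones.

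Several genes of the same families moved the other way. Of 8 tested paralogs and partners of these genes, 1 rose, 5 fell and 2 did not pass, with a median log2 fold change of -0.75. For all tested genes the shares were 20.4% higher and 20.7% lower, and the difference was not tested. Nfe2l1, which encodes the related factor that drives proteasome genes, had 89.8, 77.1 and 73.1 CPM in senescent replicates and 148, 135 and 166 CPM in healthy replicates (log2 fold change -0.90 ± 0.13, edgeR adjusted p = 0.0010). Nfe2, the founding factor of the family, known from blood cell precursors, was at 0.0579 to 0.223 CPM in senescent and 0.990 to 1.85 CPM in healthy libraries (log2 fold change -3.60 ± 0.51, edgeR adjusted p = 0.0010). In senescent libraries 3 counts equal 0.0837 to 0.0874 CPM, so that the size of this fall rests on very few counts. With each library left out it ran from -4.31 to -3.23. All 3 senescent libraries were below all healthy ones for both genes.

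The quinone reductase paralog Nqo2, which uses dihydronicotinamide riboside in place of NADPH, had 54.5, 44.7 and 45.4 CPM in senescent replicates and 132, 122 and 97.1 CPM in healthy replicates (log2 fold change -1.28 ± 0.15, edgeR adjusted p = 0.00036). Mitochondrial thioredoxin reductase, Txnrd2, fell by 0.60 on the log2 scale (adjusted p = 0.0050) and the remaining reductase gene, Txnrd3, known from testis, by 2.04 (adjusted p = 0.00021). Hmox2, the constitutive haem oxygenase gene, had a log2 fold change of -0.15 with a 95% interval of -0.40 to 0.09, and Osgin2 one of 0.09 with an interval of -0.57 to 0.76; neither passed. The single riser, Slc3a2, encodes the heavy chain that carries Slc7a11 and other light chains to the membrane. Slc3a2 had 68.2, 74.0 and 73.5 CPM in senescent replicates and 48.2, 52.8 and 46.2 CPM in healthy replicates (log2 fold change 0.55 ± 0.11, edgeR adjusted p = 0.0044). Each fit without a single library again called 5 of them lower and 1 higher, and with total library size 4 were lower.

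**Figure D4:**
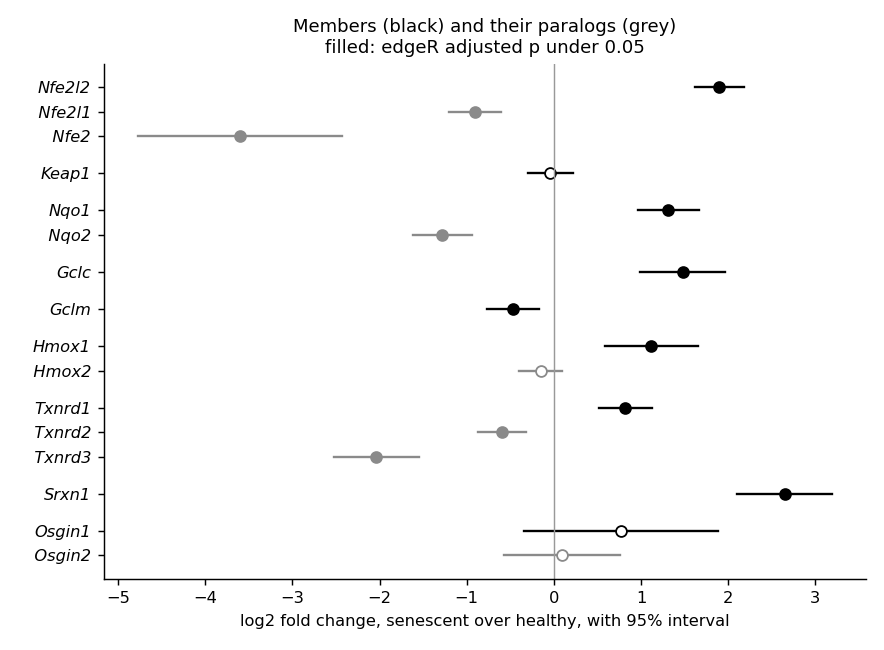
Log2 fold changes, senescent over healthy, of 9 tested genes (black) and of their paralogs (grey) with 95% intervals; filled points had an edgeR adjusted p under 0.05. Nfe2l2, Nqo1 and Txnrd1 lie at 1.90, 1.31 and 0.82, and their paralogs Nfe2l1, Nqo2 and Txnrd2 at -0.90, -1.28 and -0.60.

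Other parts of the control machinery were also measured. Of 15 tested genes for MAF and BACH factors, the KEAP1 ligase and further regulators of NRF2, 1 rose, 3 fell and 11 did not pass, with a median log2 fold change of -0.18; of all tested genes 41.1% were called, and the difference was not tested. Sqstm1, the gene of the autophagy receptor p62 that draws KEAP1 away from NRF2 and is itself an NRF2 target, had 363, 305 and 323 CPM in senescent replicates and 432, 458 and 434 CPM in healthy replicates (log2 fold change -0.42 ± 0.12, edgeR adjusted p = 0.025). Rbx1, the RING subunit of the ligase, fell by 0.39 on the log2 scale and Park7, the gene of DJ-1, by 0.51, while Gsk3b, whose kinase marks NRF2 for a KEAP1-independent ligase, rose by 0.46. None of these 4 calls held in every fit: each was lost without senescent replicate 2, without senescent replicate 3 and without healthy replicate 2 (edgeR adjusted p 0.058 to 0.15). Rbx1 and Park7 were also lost without senescent replicate 1 and Gsk3b and Park7 without healthy replicate 1 (adjusted p 0.060 to 0.12), and the 3 falls with total library size (adjusted p 0.31 to 0.56). Cul3, the scaffold of the ligase, had a log2 fold change of -0.06, and Bach1, the haem-sensing repressor at many of the same sites, one of -0.19; neither passed.

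Further NRF2 targets moved in both directions. Across 4 lists of textbook targets without the 10 genes above, 17 of 44 tested genes rose, 7 fell and 20 did not pass. All tested genes gave 20.4% rises and 20.7% falls, and the difference was not tested. The median log2 fold change of the 44 targets was 0.30. The rises came from the glutathione and thioredoxin list, where 8 of 16 rose and 3 fell, and from the detoxification and export list, where 9 of 16 rose and 1 fell. Neither NADPH supply (0 of 6 rose, 2 fell) nor haem and iron, where Hmox1 alone of 7 rose and 1 fell, added any. Without senescent replicate 3, 11 of these targets rose and 4 fell, with 4 risen genes on the detoxification list; 4 fell without senescent replicate 2 or healthy replicate 2.

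Gss, whose glutathione synthetase completes what glutamate-cysteine ligase begins, had 186, 179 and 198 CPM in senescent replicates and 52.4, 36.7 and 55.6 CPM in healthy replicates (log2 fold change 1.96 ± 0.17, edgeR adjusted p = 6.9e-05). Gsr, the gene of glutathione reductase, which regenerates reduced glutathione, had 128, 113 and 161 CPM in senescent replicates and 55.2, 57.4 and 58.1 CPM in healthy replicates (log2 fold change 1.23 ± 0.14, adjusted p = 0.00038). Gclc, Gss and Gsr therefore rose, while Gclm did not. Gstp1, a glutathione transferase gene, averaged 1610 ± 166 CPM in senescent and 346 ± 103 CPM in healthy libraries (log2 fold change 2.22 ± 0.23, edgeR adjusted p = 0.00020), although near-identical copies can share its reads. Falls were those of Glrx, the gene of glutaredoxin, by 1.20 on the log2 scale (adjusted p = 0.00021), of Prdx1, the gene of a peroxiredoxin, by 0.45 and of Gsta3, another transferase gene, by 0.54. The calls of Prdx1 and Gsta3 were each lost without senescent replicate 1, 2 or 3 or healthy replicate 2, and with total library size. That of Gsta3 was also lost without healthy replicate 1, by limma-voom and with a filter at a mean of 1 CPM. The same held without the 50 most abundant genes and with a block for the replicate number (adjusted p 0.050 to 0.39 in all these fits).

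Of the detoxification genes, Ephx1, which encodes microsomal epoxide hydrolase, averaged 1470 ± 26.7 CPM in senescent and 291 ± 15.4 CPM in healthy libraries (log2 fold change 2.34 ± 0.13, edgeR adjusted p = 6.9e-06). The efflux pump gene Abcc4 had 10.3, 15.3 and 13.8 CPM in senescent replicates and 3.50, 2.14 and 4.10 CPM in healthy replicates (log2 fold change 2.01 ± 0.25, edgeR adjusted p = 0.00055), and the aldo-keto reductase gene Akr1b10 rose by 2.12 on the log2 scale. Akr7a5, an aflatoxin aldehyde reductase gene, fell by 0.71 (adjusted p = 0.0071; 0.053 with total library size). Among NADPH genes, malic enzyme Me1 averaged 177 ± 9.58 CPM in senescent and 336 ± 36.3 CPM in healthy libraries (log2 fold change -0.93 ± 0.13) and isocitrate dehydrogenase Idh1 219 ± 11.7 CPM in senescent and 394 ± 14.5 CPM in healthy libraries (log2 fold change -0.85 ± 0.11; edgeR adjusted p = 0.00085 and 0.00077). Fth1, the ferritin heavy chain gene, fell by 0.51 on the log2 scale (adjusted p = 0.019), a call that was lost when senescent replicate 2, senescent replicate 3 or healthy replicate 2 was omitted (0.059 to 0.090) and with total library size (0.22).

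**Figure D5:**
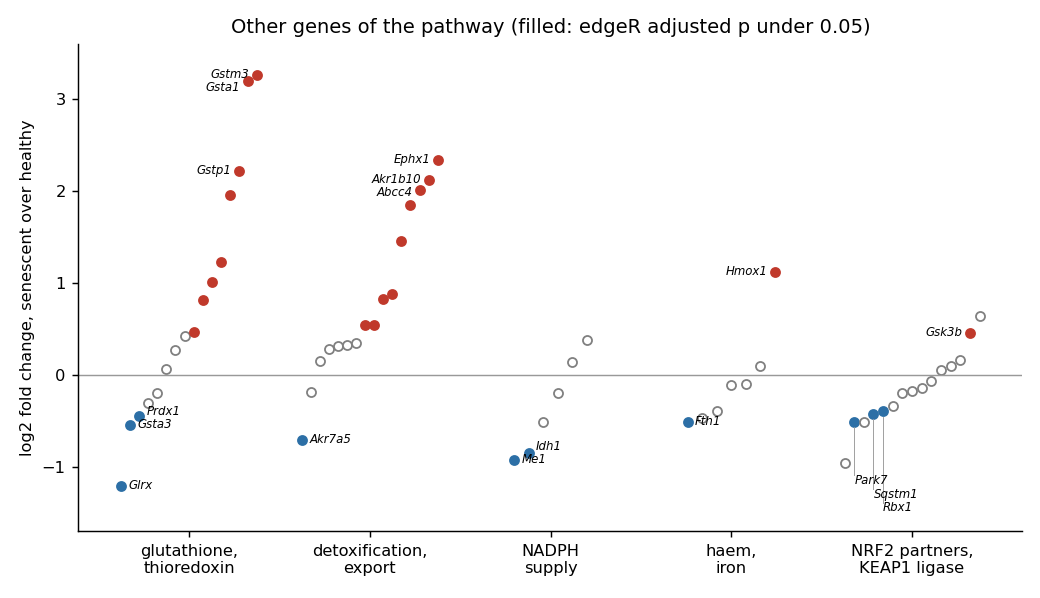
Log2 fold changes, senescent over healthy, of tested genes on 4 lists of NRF2 targets and on the list of NRF2 partners and KEAP1 ligase parts, each point a gene, sorted within its list; filled points, red for higher and blue for lower, had an edgeR adjusted p under 0.05. Named are up to 3 called genes with the largest change in each direction; rises gather in the first 2 lists, up to 3.26 for Gstm3, and Hmox1 is the single rise of the haem and iron list.

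Slc7a11 and some others are also targets of ATF4, the factor of the integrated stress response. Among its 10 tested genes 2 were higher, 2 lower and 6 not called, with a median log2 fold change of 0.08. Over all tested genes 20.4% were higher and 20.7% lower. Sesn2, a sestrin gene known also as a p53 target whose product promotes the removal of KEAP1, had 116, 138 and 121 CPM in senescent replicates and 8.35, 12.1 and 11.5 CPM in healthy replicates (log2 fold change 3.55 ± 0.17, edgeR adjusted p = 3.2e-06). Atf3, a stress factor that is also an immediate early gene, rose by 1.58 (adjusted p = 0.012). Chac1, whose enzyme cleaves glutathione, fell by 2.96 on the log2 scale (adjusted p = 0.0080, and 0.061 by limma-voom). It had 0.949, 1.43 and 0.811 CPM in senescent and 1.79, 13.9 and 9.19 CPM in healthy replicates. Healthy replicate 1 was thus close to the senescent libraries. Trib3, a pseudokinase gene, fell by 1.06 (adjusted p = 0.010). Immediate early genes, which tissue dissociation can induce, summed to 760 to 938 CPM in senescent and 419 to 615 CPM in healthy libraries. Of 10 tested, 4 rose and 0 fell (median log2 fold change 0.73), against 20.4% and 20.7% of all tested genes. Among these 4 were Egr1, Fos and Jun, which rose by 1.64, 1.35 and 1.10 on the log2 scale. Fos and Jun encode AP-1, which can bind TGACTCA; their part in the changes above was not tested.

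By the root mean square difference of centred log2 CPM over the 6 libraries, among 7500 other genes of at least 10 CPM on average, the profiles most like that of Nfe2l2 were those of Parp11, Cyp4f17 and Rab40c, at 0.103, 0.112 and 0.115. For Nqo1 they were Fam102a, Luzp1 and Lrrc57, at 0.064, 0.083 and 0.097. The log2 fold changes of the first 3 were 1.88, 1.88 and 1.93, and those of the last 3 were 1.26, 1.21 and 1.31; all were chosen for their likeness, and these are a description.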

How the data were processed

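Polyadenylated RNA of 6 hepatocyte samples was counted. Per the labels' protocols, 500 ng of total RNA per sample went into a directional library kit with 10 PCR cycles. The authors deposited raw read counts per gene, which are whole numbers and unscaled. The submitters' processing notes give GRCm38 as the build and tools that include STAR 2.7.1a and cutadapt 1.16, with featureCounts, DESeq2 1.34.0, FastQC and MultiQC 1.3; the sources used here name neither the annotation release nor the strand setting, so genes that overlap others or have near-identical copies are uncertain. Symbols, positions and exonic lengths come from GENCODE M21 on GRCm38 (32009 of 32061 IDs had a symbol).

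Counts were tested with edgeR 4.0.16 in R 4.3.3 (quasi-likelihood F test, two-sided, no covariate) on genes kept by filterByExpr (10 counts at least, 15 in total), scaled by TMM. The test was tried on simulated data. The SE is the log2 fold change over the square root of F. Ratios within libraries were compared by exact permutation. Tried in its place were DESeq2 1.42.0 and limma-voom (limma 3.58.1); scaling by DESeq2's size factors or by total library size; no low-count filter, or one requiring an average of 1 CPM; leaving out the 50 top genes; a threshold of 0.01; a block for the replicate number; and omission of each library. The genes and lists were chosen with earlier results of these data known. From each list of other genes the 3 risen and 3 fallen genes with the smallest p are named. Genes named outside that rule (Nfe2l1, Txnrd2, Hmox2, Osgin2, Cul3, Bach1, Cyp1a1, Cyp1a2, Gstm3 and Acta2) were chosen after their values were seen. The result for one marker list is not reported here. One healthy column, replicate 2, was matched to its sample although its code differs from the label in a single letter. No library was a copy of another: chi-square over degrees of freedom of their counts was 46.4 or more in every pair.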

Additional observations from a re-analysis of the deposited data

How the results depend on the processing

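The 6 rises of Nfe2l2, Nqo1, Gclc, Hmox1, Txnrd1 and Srxn1 were called in all 15 alternatives. Scaling to total library size gave 4861 higher and 1285 lower genes, compared with 2644 and 2680 with TMM; 0 of the 10 genes fell, the log2 fold change of Keap1 was 0.27, and 24 other NRF2 targets rose and 3 fell, against 17 and 7. An adjusted p under 0.01 left 1570 genes higher and 1498 lower, and 0 of the 10 lower. With each library left out in turn, 1836 to 2691 genes rose and 1489 to 2789 fell, 6 of the 10 genes rose and 0 or 1 fell. Of other NRF2 targets 11 to 16 rose and 4 to 9 fell, the log2 fold change of Keap1 ran from -0.090 to 0.052 and that of Osgin1 from -0.075 to 1.17. The mean log2 differences of the Gclc to Gclm and Nfe2l2 to Keap1 ratios ran from 1.78 to 2.09 and from 1.83 to 2.02. DESeq2 called 2751 genes higher and 2812 lower.

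Several small counts moved by over 1.5 times. With total library size the list of NRF2 partners and ligase parts had 3 rises and 0 falls (1 and 3 with TMM), NADPH supply 2 rises (0), haem and iron 2 rises and 0 falls (1 and 1), the glutathione list 1 fall (3), the detoxification list 0 falls (1), the AhR battery 0 falls (1), macrophage markers 10 rises (2) and endothelial markers 5 rises (2). DESeq2 gave 6 and limma-voom 4 risen macrophage markers, and no filter 7. With single libraries left out the counts were 0 to 1 rises and 0 to 3 falls for partners and ligase parts, 1 to 3 falls for glutathione, 4 to 8 rises for detoxification, 0 to 2 falls for haem and iron, 1 to 4 rises and 0 to 1 falls for the AhR battery and 0 to 6 rises for macrophage markers; hepatocyte markers had 4 to 7 falls, stellate markers 2 to 5 rises and endothelial markers 1 to 3. In the fits without a single library 1836 to 2691 of all tested genes rose and 1489 to 2789 fell. The cause was not tested.

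With the replicate number as a block, 2576 genes rose and 2625 fell and the 10 genes gave 6 rises and 1 fall; the call of Gsta3 was lost (log2 fold change -0.52, edgeR adjusted p = 0.059), the AhR battery had 2 falls in place of 1 and endothelial markers 1 rise in place of 2. For the 2 ratios the sign-flip test over pairs gave an exact p = 0.25. Deviations from the group means of same-numbered libraries correlated across genes at 0.23, -0.17 and -0.04. Of 3 senescent libraries 1 correlated best with its own number. With 3 libraries per group these values cannot decide whether the numbers pair the samples. Depth limits Slc7a11, and 3 libraries per group limit the exact tests.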
